A study of Mus musculus with 8 samples.

Results

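The genes described here encode the machinery of the chemical synapse: 33 presynaptic genes, whose products build, fill, dock, fuse and recycle synaptic vesicles, and 8 postsynaptic genes, whose products anchor receptors opposite the release site. These 41 genes were chosen by symbol, from their known function and not from a measured value, although earlier results of these data were known. They were taken out of 22725 symbols that both deposited tables share, and all 41 were listed in all 8 libraries. Hypothalamus of mouse embryos was sequenced as pooled RNA in wild-type embryos and in embryos mutant for Foxd1, a forkhead transcription factor gene of the early hypothalamus. Per genotype, 1 library was made at embryonic stage E12.0 (days after conception), 1 at E12.5 and 2 at E17.5. The sources name the mutants Foxd1-null in 1 place and Foxd1-mutant in another, without giving the allele or strain. They count 8 null and 10 control embryos over the whole series, word the controls in a way that could cover either genotype, and mention only E12.5 and E17.5 where the dissection is described. It was not given whether the pools came from separate litters, so p-values measure the spread between these libraries, which may be technical.

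In a synapse, an action potential opens calcium channels, a calcium sensor of the synaptotagmin family triggers SNARE proteins on the vesicle and the plasma membrane to zip together, and transmitter is released. Active zone proteins hold vesicles at the release site, endocytic proteins retrieve their membrane, and neurexins bind neuroligins across the cleft, where scaffolds of the PSD-95, Shank and Homer families organise the receptors. Many genes of this kind are switched on as neurons leave the cell cycle, extend axons and begin to form contacts. Their RNA can therefore reflect both the number and the maturity of neurons, though not every gene here need do so. In bulk tissue, fewer neurons and less of an RNA in each neuron cannot be told apart.

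Levels are given in FPKM (fragments per kilobase of transcript, scaled to the size of the library), a scale per length on which genes can be compared. Foxd1 lay lower in each mutant library than in the wild-type libraries of its stage. Its wild-type FPKM was 24.95 (E12.0), 30.3 (E12.5) and, late, 3.90 and 1.96, and its mutant FPKM 2.77, 2.5, and 0.396 and 0.230. Estimated depth was 30.3 to 43.5 M fragments (M, mega) at E17.5 and, less certainly, 4.03 to 56.2 M at E12, with the wild-type E12.0 library the shallowest. The pan-neuronal tubulin gene Tubb3 stood between 648 and 1593 FPKM, and the hypothalamic regulators Nkx2-1 and Rax were detected in each library, at 8.48 to 39.8 and 1.71 to 17.8 FPKM. At E12.0 Nkx2-1 was at 39.8 FPKM (wild-type) against 13.1 (mutant), and in the E12.5 pair at 24.2 against 29.96, the other way round. Markers of the neighbouring telencephalon summed to 108 FPKM in mutant replicate 2 of E17.5 and to between 46.3 and 50.3 FPKM in the other 3 libraries of that stage, so that library stood apart, and the E17.5 differences that rest on it are also given without it. The wild-type E12.0 library stood apart as well, as described with the early results.

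Before the values, the promoters of Syn1 and Unc13a are shown because they hold the motifs that were searched. A motif named RE1, bound by the repressor REST, restrains many synaptic genes outside neurons, and the cyclic AMP response element binds factors of the CREB family. The RefSeq promoter table (build GRCm38.p6, 250 bases before to 50 bases after each start, 300 in all) held 32 of the 41 genes, and Nrxn2, Rims2, Shank1, Shank2, Snap25, Syn3, Syt4, Syt5 and Vamp2 were not in it. The left part of RE1, TCAGCACC on either strand, was found in Nlgn1, Syn1 and Unc13a, 3 of 32 (9.38%), and in 1.85% of 27025 genes with a promoter in the table. Its right part, GGACAGC, was found in Unc13a, 1 of 32, and in 7.59% of those genes. The response element TGACGTCA was found in Sh3gl2 and Syn1, 2 of 32, and in 2.03% of those genes. Sequences are written 5′ to 3′ on the strand of the gene, and capitals mark the matches. The Syn1 promoter (chrX:20920869-20921168, minus strand) holds the left part of RE1 and then the response element, and the Unc13a promoter (chr8:71671708-71672007, minus strand) holds both parts of RE1, on the opposite strand.
Syn1: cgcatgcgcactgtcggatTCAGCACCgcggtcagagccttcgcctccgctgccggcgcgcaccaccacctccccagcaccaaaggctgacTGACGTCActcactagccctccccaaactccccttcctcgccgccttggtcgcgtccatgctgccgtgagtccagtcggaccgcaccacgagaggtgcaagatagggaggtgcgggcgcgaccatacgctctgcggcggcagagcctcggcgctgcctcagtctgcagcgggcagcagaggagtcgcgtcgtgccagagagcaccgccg
Unc13a: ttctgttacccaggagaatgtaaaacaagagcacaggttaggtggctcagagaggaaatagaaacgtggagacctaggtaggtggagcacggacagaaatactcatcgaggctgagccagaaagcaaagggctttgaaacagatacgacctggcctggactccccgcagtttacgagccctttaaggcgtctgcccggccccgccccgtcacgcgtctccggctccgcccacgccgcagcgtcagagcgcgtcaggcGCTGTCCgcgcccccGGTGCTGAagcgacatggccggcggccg
A match is a description of these letters and was not tested as a binding site. Rest itself stood at 5.95 and 4.75 FPKM in the early wild-type libraries and 3.99 and 5.36 in the mutant ones, and late at 4.49 and 3.5 against 4.07 and 5.06, with overlapping genotypes at both times.

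The first question was how strongly each synaptic gene was expressed and in what order. At E17.5 the vesicle GTPase gene Rab3a was highest, at a mean of 162 FPKM over the 4 libraries. It was followed by Syp (synaptophysin, an abundant vesicle membrane protein) at 125, Syt4 (a synaptotagmin) at 115, the SNARE gene Snap25 at 93.4, Syt11 at 80.5 and the fast calcium sensor gene Syt1 at 77.4 FPKM. Among the 8 postsynaptic genes Dlg4, which encodes PSD-95, led at 70.8 FPKM. Of the 41 genes, 32 stood at 10 FPKM or more and 14 at 50 or more, with a median of 23.7 FPKM, and only Syt2, a calcium sensor of fast synapses, was under 1 (0.862 FPKM). Neighbours in this order often could not be separated. Rab3a lay above Syp in each of the 4 libraries (150 to 171 against 112 to 131 FPKM), whereas the ranges of Syp and Syt4 (110 to 123 FPKM) overlapped, as did those of Syt11 (77 to 83.8) and Syt1 (74.4 to 80.6).

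At E12 the order was different. Syt11 led with a mean of 72.0 FPKM over the 4 early libraries, followed by Rab3a at 56.5, Dlg4 at 35.4, Syt4 at 33.3 and Nlgn2, the neuroligin of inhibitory synapses, at 32.1 FPKM. Of the 41 genes 19 stood at 10 FPKM or more and 2 at 50 or more, with a median of 8.97 FPKM. Syt2 and the vesicle glycoprotein genes Sv2b and Sv2c were under 1. These 3 genes at E12, and Syt2 in each fit, stayed below the mean of 1 FPKM required for testing, which left 38 genes tested at E12 and 40 elsewhere.

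**Figure D1:**
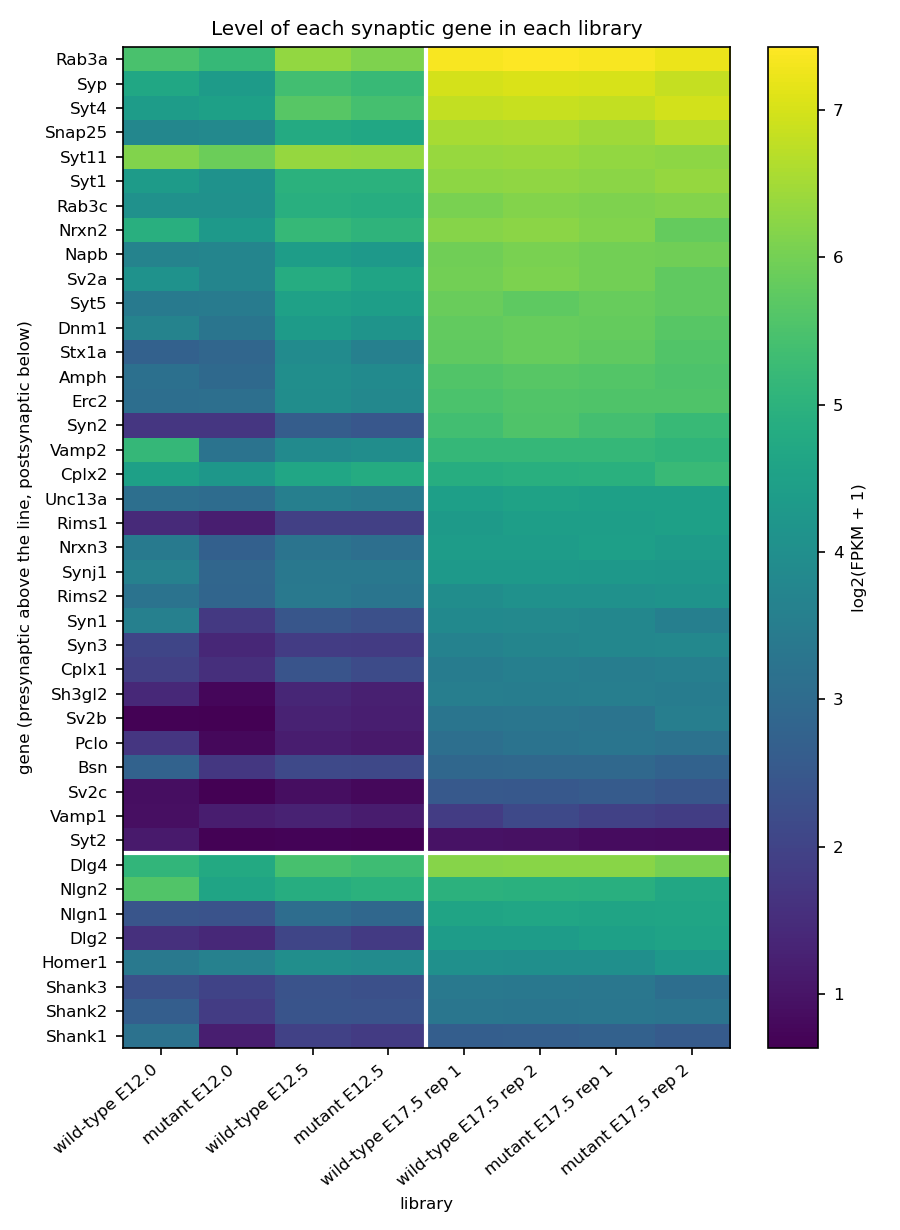
Level of each of the 41 synaptic genes (rows, presynaptic above the white line and postsynaptic below) in each of the 8 libraries (columns), as log2(FPKM + 1) in colour. The E17.5 libraries to the right of the vertical line are brighter in most rows, Syt11 and Nlgn2 change little in colour, and the wild-type E12.0 column is brighter than the mutant one for Shank1, Syn1 and Vamp2.

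The second comparison was between stages. The early table holds gene rows and the late one transcript rows, and each was made on its own, so ratios between them are a description. Relative to E12.5, 25 of the 32 measured presynaptic genes were past 2-fold higher at E17.5 in wild-type on the log2(FPKM + 1) scale, and 3 of the 8 postsynaptic genes, against 14.2% of all 12519 genes. In the mutant the counts were 25 of 32 and 2 of 8, against 15.2% of all genes. The median ratio of the presynaptic genes was 2.47 in wild-type and 2.58 in mutant, that of the postsynaptic genes 1.77 and 1.83, and that of all genes 1.06 in both. The 12 pan-neuronal markers, which carry no synaptic gene of the 41, had a median ratio of 1.5 in wild-type and 1.65 in mutant. Per summed FPKM of those markers, presynaptic FPKM was 23.7% (wild-type) against 24.1% (mutant) at E12.5. At E17.5 it was 35.6% and 35.3% against 34.9% and 36.1%. The genotypes thus lay close together at E12.5 and overlapped at E17.5, and in these libraries postsynaptic FPKM stayed between 4.20% and 4.58% of the same sum. Without Tubb3 in the sum, the presynaptic share was 47.3% against 47.0% at E12.5. At E17.5 it was 56.9% and 56.6% (wild-type) against 55.4% and 55.0% (mutant), without overlap. The postsynaptic share without Tubb3 was 8.36% (wild-type) against 8.6% (mutant) at E12.5. It was lower at E17.5 in both genotypes, at 7.33% and 7.01% (wild-type) against 7.15% and 6.87% (mutant). The steady postsynaptic share thus rested on Tubb3.

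Single genes differed widely in this ratio. In plain FPKM, Syn2 (synapsin II, which tethers the reserve pool of vesicles) stood 8.29-fold higher at E17.5 than at E12.5 in wild-type and 8.44-fold higher in mutant, the largest ratio of wild-type. Rims1, an active zone scaffold gene, had ratios of 7.16 and 7.54, the endophilin gene Sh3gl2 6.64 and 7.57, and the active zone giant Pclo 6.33 and 7.27. At the other end, Syt11 stood at 1.03 and 0.979, Nlgn2 at 1.07 and 0.904, the scaffold gene Homer1 at 1.03 and 1.2 and the complexin gene Cplx2 at 1.19 and 1.21. Dlg2, which encodes the PSD-95 relative PSD-93, was the gene with the largest ratio in the mutant, at 9.0 against 6.33 in wild-type. Its FPKM was 3.17 at E12.5 and 20.1 in both late wild-type libraries, and 2.47, then 21.6 and 22.9, in the mutant.

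Between E12.0 and E12.5, which share a table, 39 of 40 synaptic genes were higher at E12.5 in the mutant, with a median ratio of 1.49 against 1.28 over all genes, of which 91.3% were higher. In wild-type 29 of 40 were higher, against 80.6% of all genes, with medians of 1.39 and 1.29. Snap25 went from 12.8 to 26.8 FPKM in wild-type and from 13.2 to 24.7 in mutant, while Shank1 went from 8.22 to 2.83 in wild-type and from 1.31 to 2.53 in mutant. One library stood behind each value, so no test was made.

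**Figure D2:**
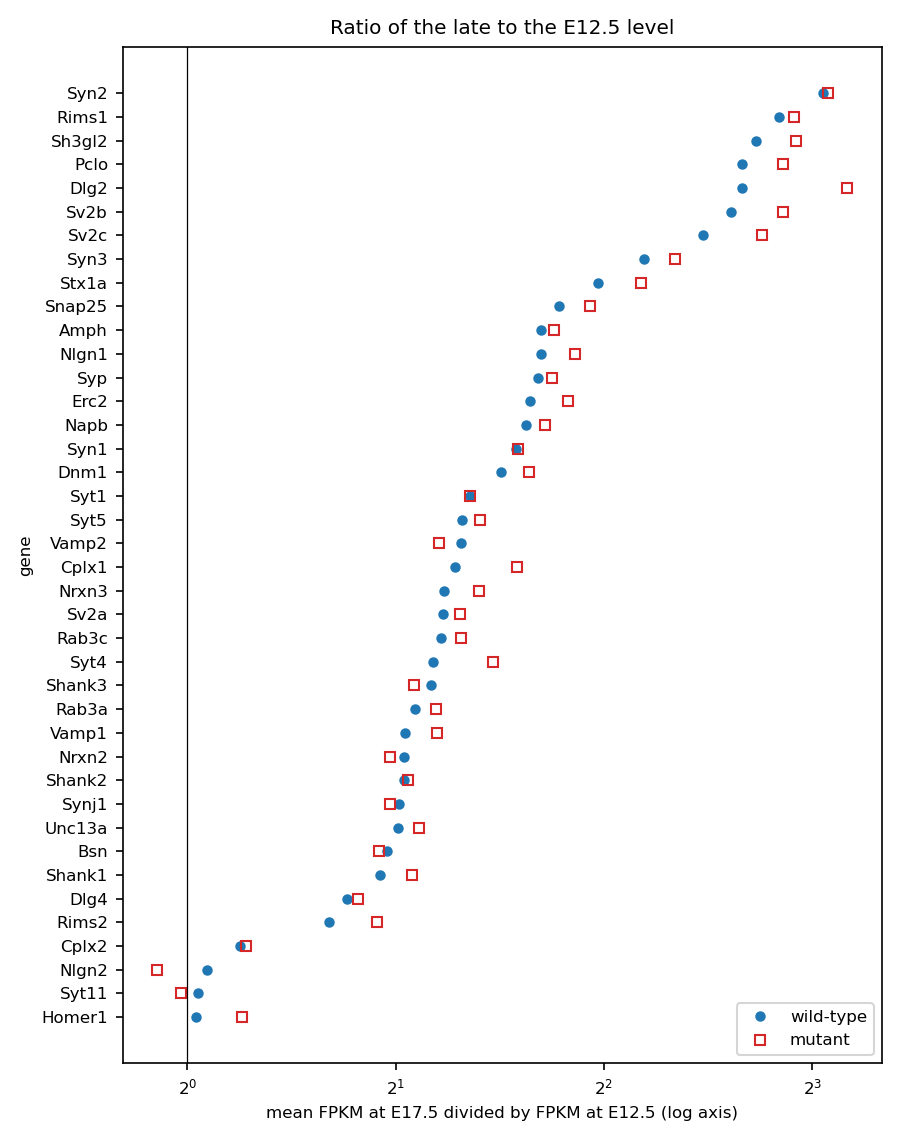
Ratio of the mean FPKM at E17.5 to the FPKM at E12.5 for 40 synaptic genes, on a log axis, in wild-type (filled circles, 2 late and 1 early library) and mutant (open squares, likewise). Syn2 lies at 8.29 in wild-type, Homer1, Syt11 and Nlgn2 lie near 1, and the squares follow the circles over the whole range, with Dlg2 (6.33 and 9.0) among the widest gaps.

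The third question was whether loss of Foxd1 altered these genes late in gestation. At E17.5 limma called 0 of 40 synaptic genes at an adjusted p under 0.05 (all adjusted p at least 0.689), against 1 of all 13235 genes (0.00756%). An unadjusted p was under 0.05 in 1 of 40, against 5.7% of all genes. Foxd1 itself was not called either (log2 difference -1.54, SE 0.24, limma adjusted p = 0.689). The fit could thus miss a gene far lower in the mutant, and a lack of calls does not show equal levels. The mutant was higher in 17 synaptic genes and lower in 23 (49.0% of all genes were lower), with log2 differences from -0.23 (Nrxn2) to 0.19 (Cplx2). The median difference was -0.01, against 0.00 over all genes. Standard errors of the 40 differences ran from 0.05 to 0.12 log2 units. Both mutant libraries lay below both wild-type ones in 9 genes (22.5%, with 22.2% over all genes) and above them in 4 (10.0%, with 20.9% over all genes).

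Among SNARE genes, Snap25, the plasma membrane SNARE, stood at 91.6 and 93.3 (wild-type) against 87.7 and 101 FPKM (mutant). Vamp2, its vesicle partner, was at 34.5 and 34.6 against 34.6 and 32.9 FPKM. Both pairs overlapped. Stx1a, syntaxin 1A, was at 53.4 and 56.1 against 53.2 and 47.4 FPKM, and its groups were separated by less than 1 FPKM (log2 difference -0.12, limma SE 0.07, adjusted p = 0.689).

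Among genes of calcium sensing, Cplx2, a clamp on the SNARE complex, was at 28.0 and 29.4 (wild-type) against 29.6 and 36.6 FPKM (mutant). Its groups did not overlap, but 1 mutant library lay next to wild-type and the other well above (log2 difference 0.19, SE 0.10, limma adjusted p = 0.689). The sensors Syt1 (76.2 and 78.4 against 74.4 and 80.6 FPKM) and Syt5 (57.4 and 53.0 against 56.6 and 54.0 FPKM) overlapped between genotypes. Syt4 was at 110 and 115 against 110 and 123 FPKM, overlapping as well.

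Among vesicle membrane genes, Sv2a, a vesicle glycoprotein, was at 62.6 and 66.6 (wild-type) against 61.8 and 53.9 FPKM (mutant). Syn1, synapsin I, was at 13.4 and 13.3 against 12.8 and 10.9 FPKM. Rab3a was at 165 and 171 against 162 and 150 FPKM. In each of these 3 the mutant libraries lay below the wild-type ones, with mutant replicate 2 the lowest, and none passed the test (log2 differences -0.16, -0.16 and -0.10, limma adjusted p = 0.689 for each). Syp overlapped, at 126 and 131 against 129 and 112 FPKM, and Syn2 overlapped too, at 40.7 and 45.8 against 41.2 and 35.8.

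Adhesion genes across the cleft gave the largest difference. Nrxn2, a neurexin, was at 71.7 and 74.8 (wild-type) against 70.1 and 55.4 FPKM (mutant) (log2 difference -0.23, SE 0.11, limma adjusted p = 0.689). Nlgn2 was at 30.7 and 29.9 against 29.5 and 25.2 FPKM (-0.15, SE 0.08, same adjusted p). In both, mutant replicate 1 lay just below wild-type and replicate 2 far lower. Nrxn3 and Nlgn1 overlapped between genotypes, with log2 differences of 0.03 and -0.01.

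Among postsynaptic scaffolds, Dlg2 was at 20.1 and 20.1 (wild-type) against 21.6 and 22.9 FPKM (mutant) (log2 difference 0.14, SE 0.06, limma adjusted p = 0.689). It was the 1 gene of the 40 with an unadjusted p under 0.05. Shank3, a scaffold that links receptors to the cytoskeleton, was at 9.46 and 9.23 against 8.97 and 7.52 FPKM (-0.17, SE 0.09, adjusted p = 0.689). Dlg4 overlapped, at 72.4 and 72.9 against 73.3 and 64.7 FPKM, as did Shank1, Shank2 and Homer1.

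Mutant replicate 2 lay at the edge of much of this pattern. It was the highest or lowest of the 4 libraries for 32 of the 40 synaptic genes, 21 times the lowest, and for 73.2% of all genes. Its median distance from the other libraries was 0.11 log2 units over the synaptic genes, against 0.04 to 0.06 for the other 3. Its raised telencephalon markers, given above, and its lower share of small RNA (9.77% of FPKM against 13.8% to 14.6%) moved with this, and their part in the result was not tested. Without it, the differences of Nrxn2, Cplx2, Shank3 and Nlgn2 shrank to -0.06, 0.04, -0.05 and -0.04. Those of Syn1, Sv2a, Stx1a and Rab3a shrank to -0.05, -0.06, -0.04 and -0.05, and that of Dlg2 to 0.10, while those of Dlg4, Syp and Syt4 changed sign, to 0.01, 0.01 and -0.02. No synaptic gene was called by limma with any single E17.5 library left out.

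At the level of transcripts, which the E17.5 table lists singly, 43 transcripts of 19 synaptic genes held between 5% and 95% of their gene's FPKM. Shares did not overlap between genotypes for 11 of these 43, against 35.4% of 7286 transcripts of all genes. Homer1 was split between a long form of 366 residues (61.9% and 62.7% in wild-type, 65.3% and 65.0% in mutant), a form of 354 residues (12.3% and 15.7% against 11.0% and 7.61%) and the short form of 186 residues, which lacks the coiled coil that links Homer proteins (25.2% and 21.1% against 23.7% and 24.9%). The long forms thus made up most Homer1 RNA in each library, and the short form overlapped between genotypes. The minor 721-residue form of Dlg4 held 11.7% and 11.8% of its FPKM (wild-type) against 14.6% and 14.8% (mutant), without overlap. The 1472-residue form of Shank2 held 73.2% and 71.3% against 74.8% and 77.9%, also without overlap. The 479-residue form of Syn2 dominated at 93.8% and 94.3% against 93.9% and 93.1%. Synj1, a phosphatase that strips the coat from retrieved vesicles, had 67.2% and 68.2% of its FPKM in the 1309-residue form (wild-type) against 73.7% and 67.3% (mutant), overlapping. These shares are estimates of the authors' assembler and were not tested.

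The fourth comparison was the genotype difference at E12, taken over E12.0 and E12.5 with stage as a block. In 36 of 38 synaptic genes the mean level was lower in the mutant, against 47.8% of all genes. The median log2 difference was -0.22 against 0.01 over all genes, and limma called 0 of 38, against 0.0335% of all 11952 genes. None of the 38 had an unadjusted p under 0.05, against 1.41% of all genes. The mutant lay below wild-type at both early stages in 25 of 38 genes (65.8%), against 21.8% of all genes, and above it at both in 0, against 25.9% of all genes. The 2 genes with a positive mean were Homer1 (0.08) and Vamp1 (0.06), both higher in the mutant at E12.0 and lower at E12.5. With 1 library per genotype and stage, the test measures how far the 2 stages differ in their genotype difference.

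They differed greatly in size. At E12.0 the mutant was lower in 29 of 38 genes (47.2% of all genes were lower), with a median of -0.29, and 4 were past 2-fold lower on the log2(FPKM + 1) scale, Shank1, Vamp2, Syn1 and Bsn, against 1.83% of all genes. At E12.5 the mutant was lower in 34 of 38 (48.5% of all genes were lower), with a median of -0.12 and a range from -0.31 (Stx1a) to 0.17 (Cplx2), and 0 were past 2-fold, against 0.535% of all genes. Shank1, a postsynaptic scaffold gene, was at 8.22 (wild-type) against 1.31 FPKM (mutant) at E12.0, then at 2.83 against 2.53 at E12.5. Syn1 was at 11.1 against 2.39, then 4.47 against 3.95 FPKM. Vamp2 was at 34.6 against 8.28, then 13.9 against 14.6 FPKM. In these genes the early wild-type value exceeded that of E12.5, and for Vamp2 the direction turned.

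Some active zone and adhesion genes also differed more widely in the E12.0 pair. Bsn, bassoon, was at 5.80 against 2.34 FPKM in the E12.0 pair and 3.38 against 3.30 in the E12.5 pair. Pclo was at 2.25 against 0.723, then 1.26 against 1.16 FPKM. Nrxn3 was at 9.58 against 5.57, then 8.48 against 7.68 FPKM. Each of these was lower in the mutant at both stages, widely at E12.0 and narrowly at E12.5. Nrxn2 was at 29.2 against 18.3, then 35.6 against 32.0 FPKM. Nlgn2 was at 46.8 against 23.1, then 28.4 against 30.3 FPKM, turning direction as Vamp2 did. Not all genes of these roles followed this. In wild-type Rims1, Rims2, Unc13a, Erc2, Nrxn2 and Nlgn1 were higher at E12.5 than at E12.0, and the log2 difference of Nlgn1 went from -0.04 to -0.16, that of Unc13a from -0.07 to -0.11 and that of Erc2 from 0.03 to -0.15. Averaged over both stages, Shank1 differed by -1.06 on the log2 scale (SE 0.45), Syn1 by -0.99 (SE 0.41), Bsn by -0.53, Pclo by -0.49, Shank2 by -0.43, Nrxn3 by -0.41, Nrxn2 by -0.40 and Sh3gl2 by -0.39 (limma adjusted p = 0.976 for each).

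Other abundant synaptic genes had smaller differences at E12.0 than Shank1, Syn1 and Vamp2. Syt11 was at 69.0 against 59.2 FPKM in the E12.0 pair and 80.3 against 79.5 in the E12.5 pair. Rab3a was at 43.6 against 35.4, then 78.7 against 68.4 FPKM. Dlg4 was at 33.7 against 26.1, then 42.7 against 39.2 FPKM. These 3 were lower in the mutant at both stages, whereas Syt4 was at 20.0 against 21.4, then 49.7 against 42.1 FPKM, with a turn in direction. Snap25, Erc2, Napb, Syn2 and Stx1a were, like Syt4, level or higher in the mutant at E12.0 and lower at E12.5.

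**Figure D3:**
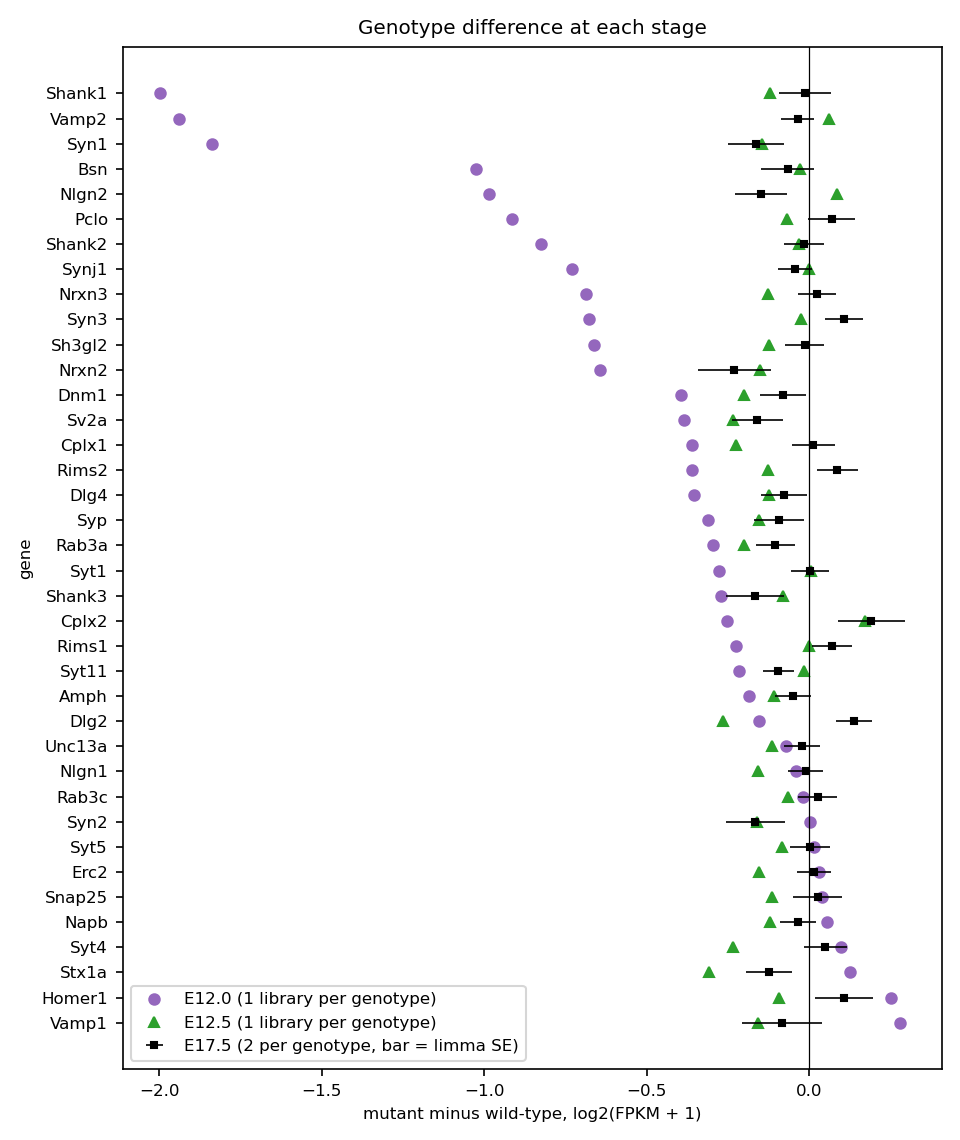
Mutant minus wild-type in log2(FPKM + 1) for 38 synaptic genes at E12.0 (circles, 1 library per genotype), E12.5 (triangles, 1 library per genotype) and E17.5 (squares with limma's standard error, 2 libraries per genotype), in the order of the E12.0 values. Shank1, Vamp2 and Syn1 lie beyond -1.8 at E12.0 and between -0.2 and 0.1 at E12.5 and E17.5, and most triangles lie just left of zero.

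The early difference was widest in the E12.0 pair, whose wild-type library stood apart. It exceeded the other 3 early libraries in 11 of 38 synaptic genes (Bsn, Nlgn2, Nrxn3, Pclo, Sh3gl2, Shank1, Shank2, Syn1, Syn3, Synj1 and Vamp2), against 14.1% of all genes. Without the pair of E12.0 libraries, the presynaptic median fell in size from -0.19 to -0.12, the postsynaptic from -0.22 to -0.11, and limma called 0 of 39 lower, against 0.381% of all genes, with the spread taken from E17.5. Leaving out the wild-type or the mutant E12.5 library, so that E12.0 alone carried the difference and E17.5 the spread, called 12 (31.6%) and 11 (28.9%) synaptic genes lower, against 12.6% and 12.1% of all genes. Those 11 were the genes just named, joined by Rims2 in the former case. A lone library is there assumed to vary as the E17.5 libraries do.

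Transcript length moved with the E12.0 difference. Over 5 equal bins of all genes by transcript length, from the shortest to the longest, the median difference at E12.0 ran through 0.16, 0.09, 0.04, -0.02 and -0.15, while at E12.5 it lay between -0.02 and 0.03. Synaptic transcripts were long, with a median of 4486 nt against 2968 nt over all genes, and 16 of 38 were in the longest bin. Measured from the median of their own bin, the synaptic genes had a median difference of -0.30 at E12.0, and 29 of 38 lay below it. Shank1, Bsn and Pclo are among the long transcripts, while Syn1 and Vamp2 are of middle and short length. Why length moved with the difference was not tested.

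**Figure D4:**
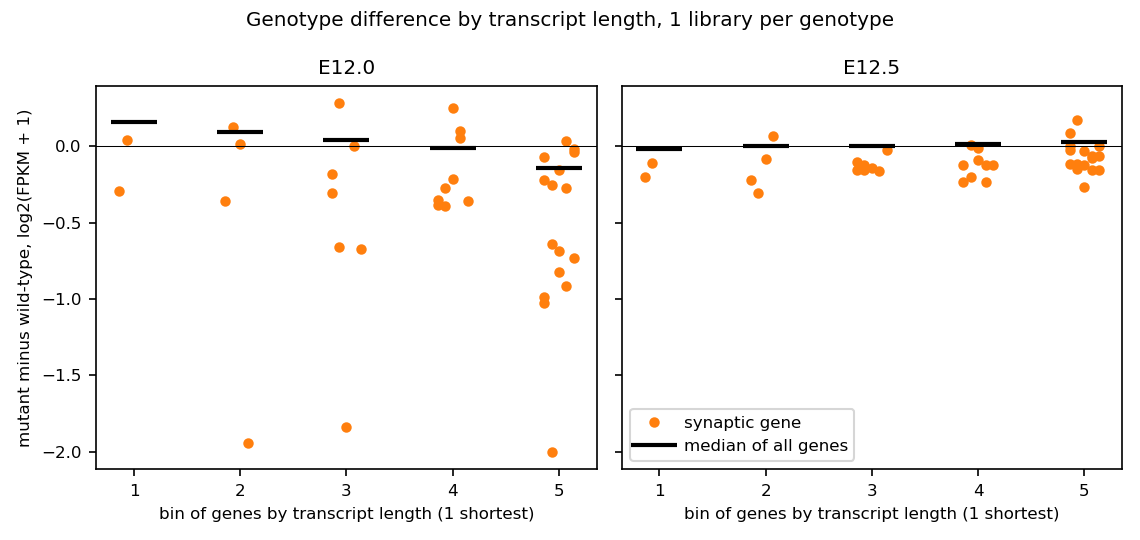
Mutant minus wild-type in log2(FPKM + 1) at E12.0 (left) and E12.5 (right), by 5 equal bins of genes in order of transcript length. Black bars are medians of all genes and dots single synaptic genes: at E12.0 the bars go from 0.16 down to -0.15 and 15 of the 16 synaptic genes of the longest bin lie below 0, and at E12.5 the bars are flat.

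Markers of neurons and of dividing cells also moved at E12. Of 12 pan-neuronal markers 11 were lower in the mutant, against 47.8% of all genes (median -0.16), with 9 lower at both stages (21.8% of all genes were). Their FPKM summed to 1532 (wild-type) against 1467 (mutant) in the E12.0 pair and 2570 against 2338 in the E12.5 pair. All 12 proliferation markers were higher, against 52.2% of all genes (median 0.22), 11 of them at both stages (25.9% of all genes were), with sums of 494 and 586, then 459 and 519 FPKM. None of either list was called by limma (lowest adjusted p = 0.976), and none had an unadjusted p under 0.05. Neural progenitor markers at E12 were split, 6 higher and 4 lower (median 0.02). The rise of the proliferation markers was not particular to E12. At E17.5 all 12 were again higher in the mutant (median 0.17), 7 without overlap, against 20.9% of all genes. The proliferation markers then summed to 136 and 130 FPKM (wild-type) against 137 and 163 (mutant replicates 1 and 2). The size of this late rise thus lay mainly in mutant replicate 2, the library that stood apart. Pan-neuronal markers were then split, 6 higher and 6 lower (median 0.01). Relative to the neuronal sum, presynaptic FPKM was 28.2% (wild-type) against 22.6% (mutant) in the E12.0 pair, and postsynaptic FPKM was 7.42% against 5.01%. The presynaptic contrast rested on Tubb3, the marker with the highest level, which was at 648 (wild-type) against 771 FPKM (mutant). Without Tubb3, an alternative chosen after the data were seen, the presynaptic share in the E12.0 pair was 48.9% against 47.6% and the postsynaptic share 12.9% against 10.6%. The part of these markers in the synaptic differences was not tested. Syn1 and Syp lie on the X chromosome, and Xist, the RNA of the inactive X of females, was at 22.9 against 6.80 FPKM in the E12.0 pair and 9.96 against 8.11 in the E12.5 pair. Its part was likewise not tested. Small RNA held 24.5% of FPKM (wild-type) against 20.7% (mutant) in the E12.0 pair and 23.3% against 14.7% in the E12.5 pair. With small RNA genes left out, the E12 median over all genes went from 0.01 to -0.03. The part of small RNA in the early synaptic differences was not tested.

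**Figure D5:**
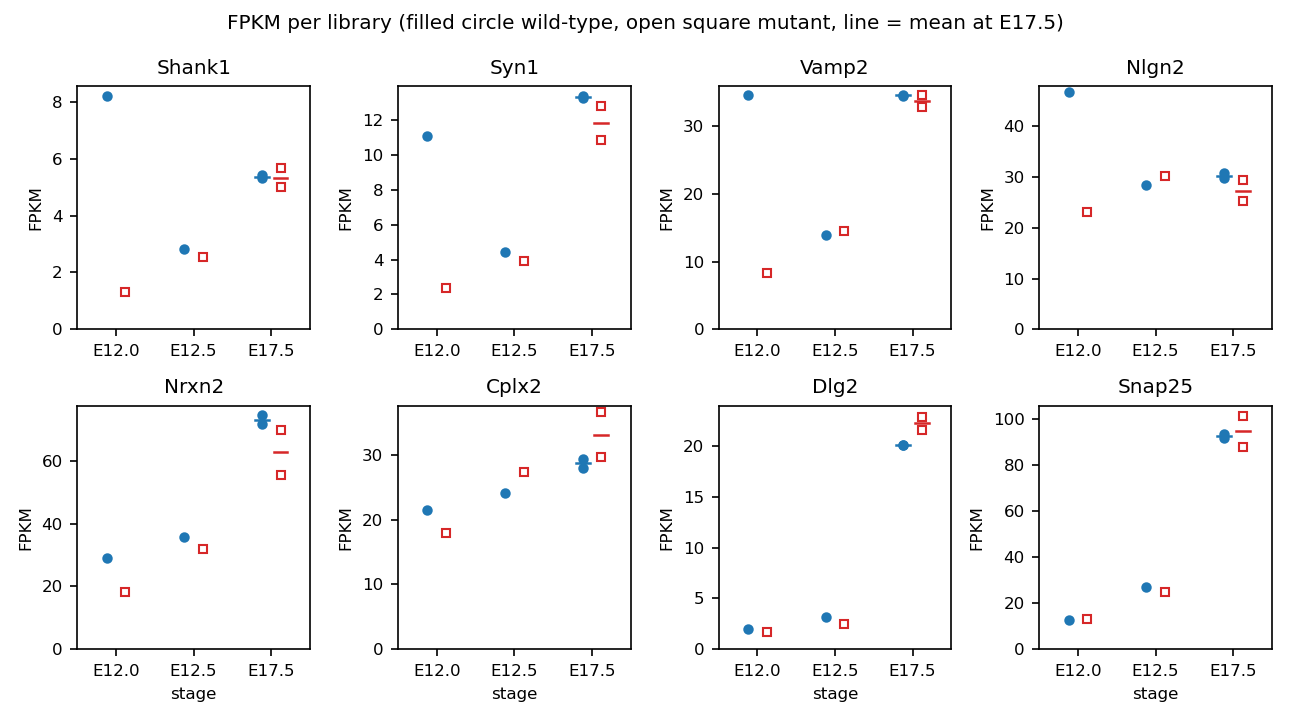
FPKM in each library of 8 synaptic genes by stage, wild-type as filled circles and mutant as open squares, with a line at the mean of the 2 E17.5 libraries. For Shank1, Syn1, Vamp2 and Nlgn2 the wild-type E12.0 value stands far above the other 3 early values, whereas Snap25 goes from 12.8 to 93.3 FPKM in wild-type with the mutant close by.

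The last tests used all 8 libraries. For a genotype difference shared by all stages, limma called 0 of 40 synaptic genes, against 0% of all 12519 genes. The value was nevertheless negative in 37 of 40, against 49.3% of all genes (median -0.11 against 0.00 over all genes). Unadjusted p was under 0.05 and the value negative in 6 of 40 (15.0%), against 3.11% of all genes: Sv2a (-0.23, SE 0.07), Rab3a (-0.18), Nrxn2 (-0.31), Dnm1 (-0.19), Syp (-0.16) and Shank3 (-0.17), each with a limma adjusted p of 0.749. Dnm1 encodes the GTPase dynamin that pinches off retrieved vesicles. The mutant lay below wild-type without overlap at each of the 3 stages in 7 of 40 genes, Nrxn2, Rab3a, Shank3, Sv2a, Syn1, Synj1 and Syt11, against 5.89% of all genes, and above it in 0, against 5.74%. This test reuses the E12 and E17.5 libraries and is not independent of the results above. It did not call Foxd1 either (log2 difference -2.25, limma adjusted p = 0.749).

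For a change in the genotype difference from E12 to E17.5, limma called 0 of 40, against 0.032% of all genes, and 3 had a positive value at an unadjusted p under 0.05, Dlg2 (0.35), Rims2 (0.33) and Cplx1 (0.31), against 1.74% of all genes. Values were positive in 36 of 40, against 50.4% of all genes, meaning that the mutant was less low, or higher, at E17.5. Their median was 0.16 against 0.00 over all genes. The largest were Shank1 (1.05, SE 0.56), Vamp2 (0.90, SE 0.59), Syn1 (0.83, SE 0.51) and Pclo (0.56, SE 0.28), with a limma adjusted p of 0.749 each. Without the pair of E12.0 libraries those of Syn1 and Vamp2 turned to -0.02 and -0.10. Leaving out either E12.5 library called 11 synaptic genes here, against 7.07% and 6.11% of all genes, the 11 in which the wild-type E12.0 library was highest.

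Other genes of the same pathway were read for comparison. At E17.5, 39 of 56 other presynaptic genes were lower in the mutant (median -0.05) and 20 of 40 other postsynaptic genes (median 0.01), against 49.0% of all genes. Limma called 0 of them at the adjusted threshold, and 4 and 4 had an unadjusted p under 0.05, against 5.7% of all genes. The largest differences were in Rims3, a short active zone protein gene (52.5 and 53.6 against 48.7 and 37.4 FPKM), and Lrfn1, a synaptic adhesion gene (18.4 and 18.3 against 16.5 and 12.4 FPKM), both again lowest in mutant replicate 2. At E12, 37 of 52 other presynaptic genes (median -0.08) and 29 of 37 other postsynaptic genes (median -0.19) were lower, against 47.8% of all genes. Here 0 were called by limma, and 3 and 1 had an unadjusted p under 0.05, against 1.41% of all genes. Syngr1, a vesicle membrane protein gene, was at 4.96 against 2.76 FPKM in the E12.0 pair and 6.28 against 4.54 in the E12.5 pair. Lrrtm1, a postsynaptic adhesion gene, was at 7.01 against 5.45, then 8.79 against 5.52 FPKM. Both were lower in the mutant at both early stages, with a limma adjusted p of 0.976 each.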

How the data were processed

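RNA from 8 pools of hypothalami was sequenced. Per the submitters' processing notes, the authors aligned reads to mouse build mm9 with TopHat and deposited Cufflinks FPKM values, without versions. The labels' protocols give paired reads of 100 cycles. The E12 table held gene rows and the E17.5 table transcript rows, which were summed by symbol. Groups came from the source names. The 41 genes and the lists were chosen with earlier results of these data known.

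Values were log2(FPKM + 1). Genes whose mean reached 1 FPKM in the libraries compared were tested by limma 3.58.1 (R 4.3.3) with a variance trend, two-sided, with Benjamini-Hochberg adjustment over all genes and a threshold of 0.05. FPKM gave no counts, so no count model was used. The strand setting was not given, so overlapping genes cannot be told apart. Fits had stage as a block wherever several stages entered. A single early stage, with 1 library per genotype, was not tested. Alternatives changed the pseudocount, filter, normalization, trend, joining of rows, blocks and libraries.

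Named genes were the 8 largest differences with libraries not overlapping at E17.5 and at E12, the 4 largest differences between stages and the highest-level genes of each side, with 2 per list of other genes. Some genes that this rule names are not reported here. Further genes were chosen after their values were seen.

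Depth was estimated by trying depths until low FPKM values, of up to 5 fragments, lay close to whole numbers of fragments. Transcripts longer than 2500 nt were used, less a fragment length of 170 nt. Of the lowest values, 79.2% to 80.4% (E17.5) and 31.2% to 41.2% (E12) came within 0.1 of whole fragments. The depth was chosen on these same values, so the shares are no separate check of it. In simulated E17.5 data with 200 of 13235 genes changed, 99.0% of those changed by 1 log2 unit were recovered, and 3 genes were called with none changed. The simulated spread came from the fits, and that change is larger than any synaptic difference at E17.5. The recovery therefore says nothing of smaller differences, and in the real E17.5 libraries Foxd1, at -1.54, was not called. In simulated E12 data with 11952 genes, 23 were called with none changed, and 86 unchanged genes were called when 200 were changed by 1 log2 unit. Transcript lengths and residues came from a GENCODE annotation of GRCm38 matched by symbol or accession, with lengths for 99.1% of genes. Python 3.11.15, numpy 2.4.6, pandas 2.3.3 and matplotlib 3.10.9 were used.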

Additional observations from a re-analysis of the deposited data

How the results depend on the processing

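The counts of called synaptic genes and the medians per side stayed within 1.5 times, or within the spread between libraries, in 195 of the 196 recomputations that left no single library out. The other was the postsynaptic median of the stage difference, at 0.0763 without the pair of E12.0 libraries. At E12 that spread is the wide one between the 2 early stages, and the same setting took the E12 medians to -0.1213 (presynaptic) and -0.1056 (postsynaptic) and the all-stage ones to -0.0467 and -0.0534. It also turned Nlgn2 at E12 to 0.0879 and the stage differences of Syn1 and Vamp2 to -0.0199 and -0.0981. Leaving out single libraries gave 0 to 12 genes called lower at E12 and 0 to 11 called in the stage difference, E12 medians from -0.285 to -0.121 (presynaptic) and -0.314 to -0.106 (postsynaptic), all-stage medians from -0.134 to -0.0467 and -0.213 to -0.0534, and a postsynaptic median from -0.0682 to 0.0001 at E17.5 and from 0.0763 to 0.286 for the stage difference. Signs turned for Dlg4 (-0.166 to 0.0129), Syp (-0.192 to 0.0084) and Syt4 (-0.0246 to 0.125) at E17.5, for Nlgn2 (-0.985 to 0.0879) and Syt4 (-0.233 to 0.098) at E12, and for the stage differences of Syn1 (-0.0199 to 1.67) and Vamp2 (-0.0981 to 1.90). The cause was not tested. The E17.5 libraries share replicate numbers but deviated together with r = 0.03 over 13235 genes, so the numbers were not taken as pairs. With the replicate block, limma called 0 of 40 synaptic genes at E17.5, and 16 genes in all against 1, with medians of -0.02 presynaptic and -0.01 postsynaptic. It changed no synaptic call in the all-stage or the stage-difference fit either. Stage as a block changed the E12 count over all genes from 78 to 4, and no synaptic gene was called either way. Depth at E12 is poorly known, so genes near 1 FPKM there, such as Sv2b, Sv2c and Vamp1, are the least precise.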
